A study of Mus musculus with 27 samples.

Results

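Counts from RNA sequencing of ProT cells at late times, 12, 18 and 24 h, were pooled and compared with those at early times, 0 and 6 h, over all genes. The comparison took 15 of the 27 libraries of the series, all 9 ProT libraries with a late time label and all 6 with an early one, and was chosen by label and not by any measured value. The other libraries of the study, from mouse thymus with AKT(E17K), TAL1, both or an empty vector, were not used here. ProT cells are described by the labels as a cell line, and the name stands for early T cell precursors. The labels describe TAL1 in them as induced through CreER and LoxP by 4-hydroxytamoxifen, with a minus sign before the drug in the 0 h titles and a plus sign in all others, and they give the same genetic system for every library of both classes. Cells were thus untreated in 3 of the 6 early libraries and treated for 6 h in the other 3, and the 9 late libraries were treated for 12, 18 or 24 h, with 3 libraries a time. No vehicle-treated or Cre-only series over the same hours was analysed here, so time in culture, the drug and TAL1 cannot be told apart. Whether a time's 3 libraries are separate cultures is not stated in the labels. The p-values here therefore rest on the spread among these libraries alone, and that spread may be technical.

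TAL1 is a basic helix-loop-helix transcription factor that is active in blood progenitors and is switched off as thymocytes commit to the T lineage, and its expression in T cell precursors is a common event in T cell acute lymphoblastic leukaemia. It binds E-box DNA as a dimer with an E protein such as TCF3 or TCF12, in a complex with LMO2, LDB1 and GATA3 or RUNX1, and can take E proteins away from their own targets. Pooling 3 late and 2 early times averages more libraries per side than a contrast of 1 time with 0 h, so that a change of modest size which holds over the late times has a smaller error.

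Promoter sequences of 5 genes that represent the groups described below are shown here, each as the 250 bases upstream of the start in RefSeq (build GRCm38.p6), read 5′ to 3′ along the gene. They were chosen after their values were seen: Ccnb2 and Top2a for the mitotic genes, Pgk1 for the glycolytic genes, Mvd for the cholesterol enzymes and Cpa3 for a mast cell gene. Capitals mark CCAAT and TTTGAA in Ccnb2 and Top2a, ACGTG in Pgk1, CCAAT in Mvd and the E-box form CAGNTG in Cpa3, each on either strand. ACGTG can also lie inside the other E-box form CACGTG. Ccnb2 lies at chr9:70421555-70421804 on the minus strand, Top2a at chr11:99024190-99024439 on the minus strand, Pgk1 at chrX:106186850-106187099 on the plus strand, Mvd at chr8:122443423-122443672 on the minus strand and Cpa3 at chr3:20242182-20242431 on the minus strand.
Ccnb2: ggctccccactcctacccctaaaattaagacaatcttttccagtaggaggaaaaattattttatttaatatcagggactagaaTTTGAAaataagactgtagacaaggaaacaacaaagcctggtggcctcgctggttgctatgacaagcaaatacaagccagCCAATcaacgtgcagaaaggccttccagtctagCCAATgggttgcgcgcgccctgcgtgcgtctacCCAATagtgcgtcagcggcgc
Top2a: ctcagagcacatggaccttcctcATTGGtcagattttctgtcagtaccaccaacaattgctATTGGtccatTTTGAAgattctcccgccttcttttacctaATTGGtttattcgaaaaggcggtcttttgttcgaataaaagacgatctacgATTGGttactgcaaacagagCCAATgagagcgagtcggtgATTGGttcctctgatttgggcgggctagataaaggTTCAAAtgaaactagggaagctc
Pgk1: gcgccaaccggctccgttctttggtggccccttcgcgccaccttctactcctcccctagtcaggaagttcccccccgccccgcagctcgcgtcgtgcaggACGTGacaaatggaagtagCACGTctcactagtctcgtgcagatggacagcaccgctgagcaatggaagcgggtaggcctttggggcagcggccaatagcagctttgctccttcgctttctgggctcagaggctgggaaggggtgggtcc
Mvd: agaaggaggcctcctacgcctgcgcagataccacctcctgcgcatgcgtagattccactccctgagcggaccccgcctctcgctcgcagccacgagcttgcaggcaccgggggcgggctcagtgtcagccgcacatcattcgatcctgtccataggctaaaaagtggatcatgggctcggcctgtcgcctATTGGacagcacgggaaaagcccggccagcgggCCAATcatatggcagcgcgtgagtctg
Cpa3: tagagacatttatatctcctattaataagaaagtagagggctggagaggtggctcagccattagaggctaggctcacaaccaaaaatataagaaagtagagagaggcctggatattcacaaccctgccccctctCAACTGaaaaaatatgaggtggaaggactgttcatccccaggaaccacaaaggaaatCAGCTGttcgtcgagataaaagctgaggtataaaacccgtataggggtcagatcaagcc

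The Ccnb2 window held 3 CCAAT matches, starting 87, 54 and 21 bases upstream of the start, and the Top2a window held 6 of them. Over all 18263 promoters of this length matched to genes of the table, 35.4% held CCAAT, and over the 8464 of tested genes 36.7% did, against 23 of 31 for the mitosis list (74.2%), 19 of 32 for DNA replication (59.4%) and 17 of 20 for cholesterol synthesis (85%). TTTGAA, the core of the cell cycle homology region, was present in 14.8% of all promoters, in 10.5% of those of tested genes and in 10 of the 31 mitotic ones (32.3%). ACGTG, the core bound by hypoxia-inducible factors, stood in 17.6% of all promoters, in 22.4% of those of tested genes and in 15 of 32 of the glycolysis list (46.9%). CAGNTG occurred in 33.6% of the promoters of genes called higher late, in 36.5% of those called lower and in 36.1% of the 8464 tested genes with a matched promoter. A match is a run of letters, not a measured binding site.

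The early and late libraries also differed in library-wide measures, of which the 18S share given below rests on few gene rows. Counts in genes came to 2660641 to 5961536 per early library and 4037467 to 6599146 per late one. Reads in no annotated feature made up 19.9% to 22.6% of reads early and 17.3% to 19.7% late, mitochondrial genes took 10.9% to 16.0% and 9.71% to 12.8% of counts, and rows with the sequence of 18S ribosomal RNA took 9.52% to 17.3% and 5.83% to 11.3%. The 6 h library 1 stood apart from the other 5 early ones: on the first principal component, which held 31.2% of the variance, it scored -1.07 while they scored -37.2 to -18.3 and the late libraries 7.33 to 22.8. Over the 1678 called genes with an absolute log2 fold change of at least 0.5, it lay at a median of 0.438 of the way from the other early libraries to the late ones. Of the T cell precursor markers all 14 passed the filter, with a summed level of 1730 to 2075 CPM (counts scaled to a common library size) early and 2222 to 2746 late. In this list 4 were called higher and 2 lower, and without the higher member Il2ra, whose mean went from 486 to 998 CPM, the sum was 1431 to 1522 CPM early and 1372 to 1610 late. Of 8 B cell markers 2 passed the filter, with neither called, and the list summed to 4.18 to 9.54 CPM early and 4.64 to 11.2 late; Ms4a1 and Pax5 had 0 counts in every library. Of 10 stromal markers 1 passed and was not called, and the list summed to 26.9 to 36.9 CPM early and 33.6 to 50.5 late, with Col3a1, Dcn, Lum and Pdgfra at 0 counts in every library. Fewer cells of a type and less RNA per cell cannot be told apart in bulk samples.

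**Figure D1:**
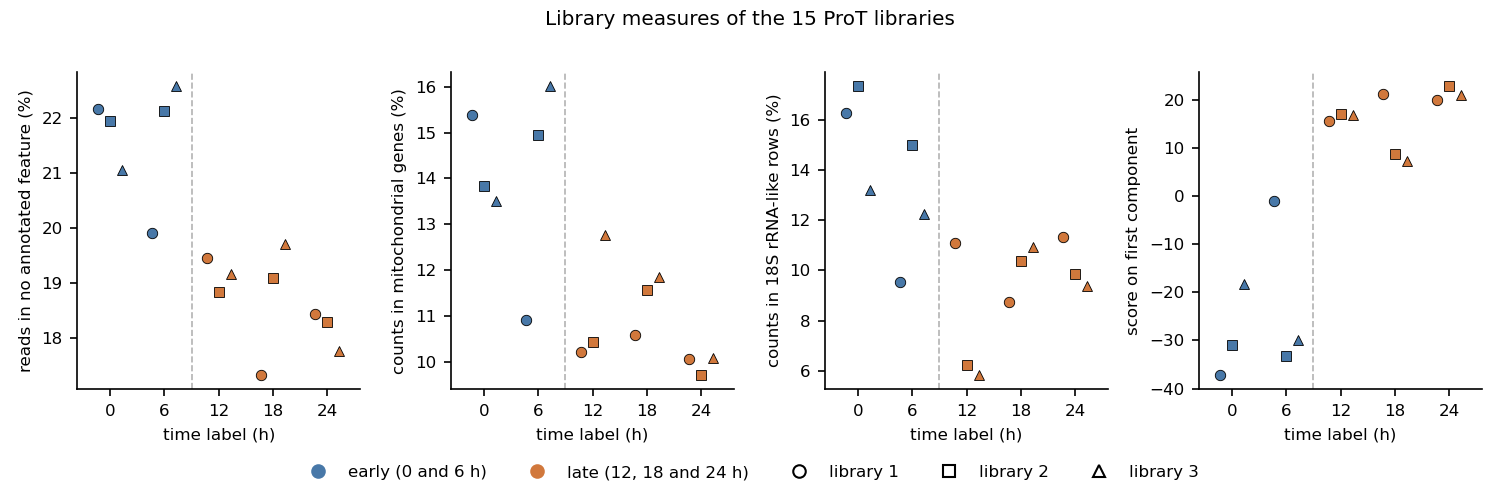
Each point is 1 of the 15 ProT libraries, by time label (x axis, h): the share of reads in no annotated feature, the share of counts in mitochondrial genes, the share in 18S rRNA-like rows (all in %), and the score on the first principal component of log2 CPM. The share in no feature lies at 19.9% or more in the 6 early libraries and at 19.7% or less in the 9 late ones, and the 6 h library 1 lies nearest to the late libraries.

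Tal1 itself (chromosome 4, 115056426 to 115071755, GRCm38) was lower at the late times. Its 6 early libraries ranged from 2895 to 3608 CPM with a median of 3039, and its 9 late ones from 1779 to 2358 with a median of 2149. The means were 3118 ± 249 CPM (SD, n = 6) and 2118 ± 178 (SD, n = 9), a log2 fold change of -0.56 ± 0.08 (SE; edgeR quasi-likelihood adjusted p = 4.99e-06). No late library reached the level of an early one. The label names TAL1 as induced, and the counts at this gene go the other way; a transgene that lacks the counted parts of the mouse gene would not be seen here, and this was not tested.

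In the pooled comparison 4138 of 13610 tested genes (30.4%) passed an adjusted p of 0.05, with 2055 higher late (15.1%) and 2083 lower (15.3%). Of these, 1436 (10.6% of genes tested) were called at none of 12, 18 or 24 h against 0 h in the same fit, 686 of them higher (5.04%) and 750 lower (5.51%). The single times had 1635 (12%), 1200 (8.82%) and 2549 (18.7%) calls, all against the same 0 h libraries. The 1436 genes had small changes: the median absolute log2 fold change was 0.37, with quartiles of 0.28 and 0.58, and 956 of them (66.6%) were under 0.5. Over all genes tested the median was 0.22. Their median standard error was 0.117 in the pooled contrast and 0.182, 0.187 and 0.184 at 12, 18 and 24 h against 0 h. In 3987 of the 4138 called genes (96.4%) each of the 3 late time means lay beyond both early means, against 52.8% of all genes tested. The genes were called on these same libraries, which favours this order and the separations given next, so neither is separate support. All 9 late libraries lay beyond all 6 early ones in 840 called genes (20.3%) and in 92 of the 1436 (6.41%), where 6.18% of all tested genes had no overlap (3.22% higher and 2.96% lower late). Within the late times, 41 genes (0.301%) differed among 12, 18 and 24 h, 27 of them also called in the pooled contrast. Between 6 and 0 h edgeR called 0 genes (0%), the smallest adjusted p being 0.196; 734 genes had p under 0.05 before adjustment, and DESeq2 called 1 gene.

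**Figure D2:**
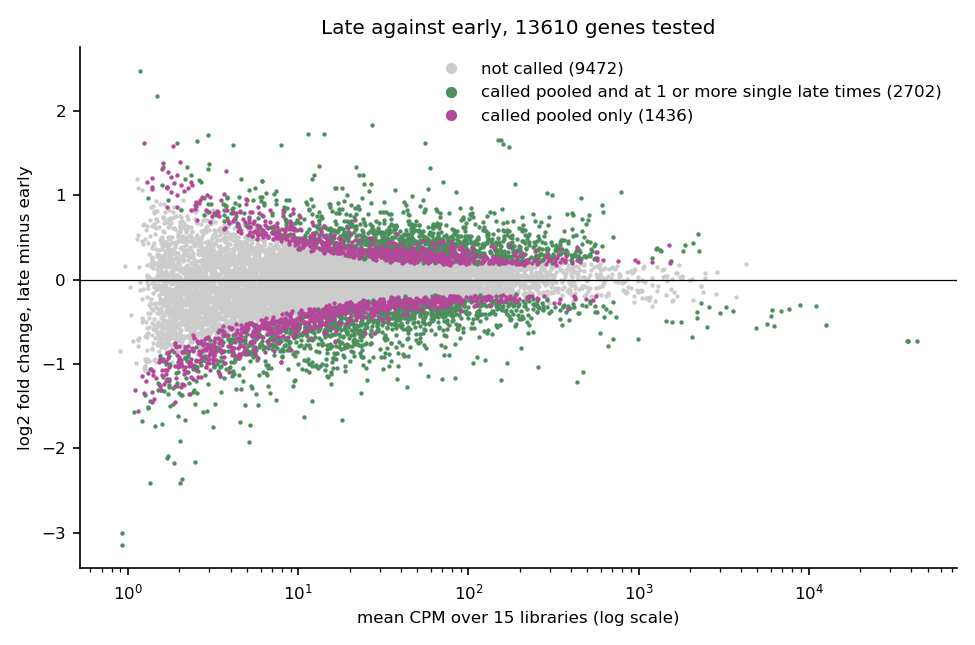
Each point is 1 of 13610 tested genes, with its mean CPM over the 15 libraries (log x axis) against its log2 fold change late minus early (y axis). The 1436 genes called in the pooled comparison only (purple) mostly lie nearer to 0 than other called genes of like level, between the uncalled genes (grey) and the 2702 called also at a single late time (green).

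How many genes were called depended on the scaling, on the 0 and 6 h libraries and on the library measures above. Scaling by library size alone moved the median log2 fold change of all genes from -0.01 to 0.12 and gave 3337 higher (24.5%) and 1156 lower (8.49%) calls. All 2055 genes called higher under TMM were also called higher there, and 1156 of the 2083 lower ones were called lower. A further fit, chosen after seeing the data, left out rRNA and mitochondrial genes and then scaled by library size alone. It gave 1735 higher and 2254 lower calls, with a median of -0.03. The list counts given below for library size scaling include those rows. Without the 6 h library 1, 5105 genes were called (36.9%), and 3990 of the 4138 (96.4%) were called in the same direction. Without the whole 6 h time 3305 genes were called and 2946 of the 4138 (71.2%) kept their call, but of the 1436 only 419 (29.2%) did. Without the whole 0 h time 2180 genes were called; 2074 of the 4138 (50.1%) and 594 of the 1436 (41.4%) were called in the same direction. Leaving out the 6 h library 2 alone gave 839 genes called in the pooled contrast only. In 924 of the 1436 genes (64.3%) the 6 h mean lay on the far side of the 0 h mean from the late mean, against 619 of the 2702 called also at a single time (22.9%) and 42.6% of all genes. The choice of genes missed against 0 h favours such a pattern. With the share of reads in no feature as a covariate, a fit chosen after seeing the data, 47 genes were called (0.345%), 18 higher (0.132%) and 29 lower (0.213%), each also called in the same direction without it, and 3309 of the 4138 (80%) had the same sign. That share does not overlap between early and late libraries, so it and time cannot be told apart.

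Among genes with a mean of at least 5 CPM, the largest rises were in genes of several functions. Podxl, a sialomucin of the CD34 family (chromosome 6, 31519488 to 31563981), ranged from 7.87 to 14.7 CPM early and from 31.3 to 46.3 late, with medians of 10.3 and 36.1. This is a 3.57-fold rise (log2 1.84 ± 0.12, adjusted p = 5.03e-11), without overlap, and it held with the covariate (log2 1.38, adjusted p = 0.00224). Aldh1b1, a mitochondrial aldehyde dehydrogenase, went from 15.7 to 36.7 CPM early to 52.3 to 92.6 late (log2 1.62 ± 0.13, adjusted p = 6.18e-10), also without overlap and with a call under the covariate (log2 0.94, adjusted p = 0.0274). Serpina3g, a protease inhibitor with close copies beside it among which reads may be split, rose by 1.72 ± 0.16 (log2), from at most 7.52 to at least 14.9 CPM. Ccdc109b, which encodes the dominant-negative subunit of the mitochondrial calcium uniporter, rose by 1.72 ± 0.19 and reached 8.44 CPM in the 6 h library 1 against 3.12 to 4.87 in the other early libraries. Ndrg2 (1.59 ± 0.18) and Grhpr (1.34 ± 0.15), a glyoxylate reductase, rose without overlap. The histone genes Hist1h2ah (1.66 ± 0.28) and Hist1h2ag (1.57 ± 0.25) overlapped between the classes, and both have near-identical copies, so that their separate values are uncertain.

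The largest falls included 2 genes best known from muscle. Rapsn, which encodes rapsyn, the anchor of acetylcholine receptors, had 7.95 to 11.9 CPM early and 0.41 to 3.53 late (log2 -1.92 ± 0.22, adjusted p = 3.35e-07), with 2 counts in its lowest library. Neb, the gene of the giant muscle protein nebulin, had 7.53 to 10.02 CPM early and 1.43 to 4.17 late (log2 -1.72 ± 0.18, adjusted p = 6.69e-08). Slc24a3, a potassium-dependent sodium-calcium exchanger (chromosome 2, 145167754 to 145642166), ranged from 28.4 to 33.3 CPM early and from 7.65 to 11.3 late, which is -1.66 ± 0.11 on the log2 scale (adjusted p = 3.92e-11). Within each class these libraries lay close together, and the classes were far apart. Ahnak, a very large scaffold protein, fell from at least 16.4 to at most 7.5 CPM (log2 -1.62 ± 0.14), Rgs10, a regulator of G protein signalling, by 1.43 on the log2 scale (SE 0.15) and Cmah, the sialic acid hydroxylase, by 1.35 (SE 0.11). Morn3 (-1.43 ± 0.18) and Sytl2 (-1.34 ± 0.18), an effector of Rab27 in vesicle docking, completed the 8 largest falls. None of these 8 overlapped between early and late libraries. With the covariate, Slc24a3 (log2 -1.61, adjusted p = 0.000703), Rgs10 (-1.98, 0.000746), Rapsn, Neb, Ahnak and Cmah were still called, and Morn3 and Sytl2 were not.

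**Figure D3:**
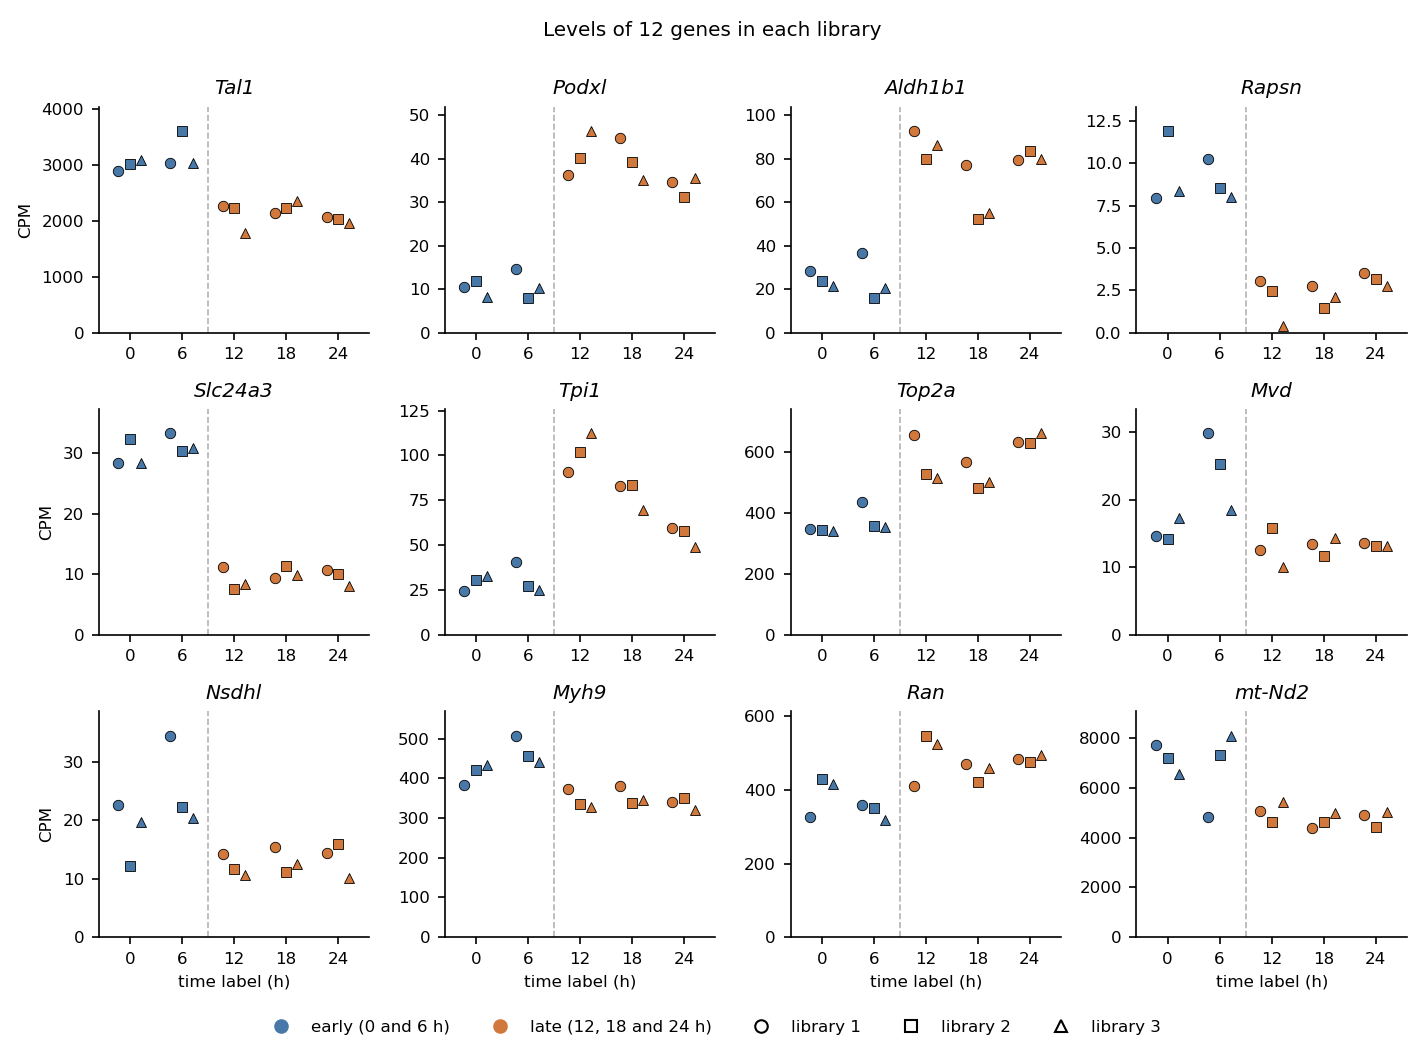
Each panel gives the CPM of 1 gene (y axis, from 0) in the 15 ProT libraries by time label (x axis, h), coloured by early or late. Tal1, Rapsn and Slc24a3 lie lower in all 9 late libraries and Podxl, Aldh1b1, Tpi1 and Top2a higher, while the early and late values of Mvd, Nsdhl and Ran overlap.

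The genes called in the pooled comparison only with the smallest p had single-time changes on the same side of 0 as the pooled one. Their choice by the pooled contrast, which holds the same libraries, favours this. Psmb8, a catalytic subunit of the immunoproteasome, had 125 to 168 CPM early and 168 to 217 late, and its log2 changes against 0 h of 0.34, 0.33 and 0.34 at 12, 18 and 24 h had adjusted p of 0.0655, 0.0811 and 0.0501. Pooled, the change was 0.40 ± 0.08 with an adjusted p of 0.000278, and the classes met at 168 CPM without overlap. Dynlt3, a dynein light chain, ranged from 35.98 to 53.3 CPM early and from 54.3 to 64.6 late (log2 0.46 ± 0.08, adjusted p = 4.3e-05), without overlap. Nsmce1, a subunit of the SMC5/6 complex (0.43 ± 0.08), Ufsp2, a protease of the UFM1 modifier (0.42 ± 0.09), and Mrps21, a mitochondrial ribosomal protein (0.38 ± 0.08), also did not overlap. Ran, the GTPase of nuclear transport, had 318 to 429 CPM early and 412 to 548 late (0.38 ± 0.08, adjusted p = 0.000628), and overlapped. Stt3a, a catalytic subunit for N-glycosylation (0.44 ± 0.09), and H1f0, the linker histone H1.0 (0.71 ± 0.13), overlapped as well; H1f0 had a mean of 18.4 CPM at 0 h and 12.6 at 6 h.

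Among the genes that fell in the pooled comparison only, Myh9, the heavy chain of non-muscle myosin IIA, had 384 to 508 CPM early and 321 to 381 late (log2 -0.35 ± 0.07, adjusted p = 0.000321), with no overlap. Arhgef18, a guanine nucleotide exchange factor, had 76.9 to 87.9 CPM early and 63.4 to 70.1 late (-0.31 ± 0.07, adjusted p = 0.000763), also apart, but with library size scaling its adjusted p was 0.069. Ddx11, a helicase of sister chromatid cohesion, fell by 0.62 on the log2 scale (SE 0.13) and Kcnmb4, a potassium channel subunit at 2.09 to 3.99 CPM early and 1.02 to 1.91 late, by 1.25 (SE 0.26); neither overlapped. Prrg1 (-0.84 ± 0.17) and Pld3, a lysosomal nuclease (-0.61 ± 0.11), overlapped. Without the 6 h time, against 0 h alone, Psmb8 (log2 0.33, adjusted p = 0.00607), Dynlt3 (0.28, 0.0283), Ran (0.28, 0.0278), Myh9 (-0.26, 0.0172) and Arhgef18 (-0.28, 0.0126) were still called. H1f0 (0.42, adjusted p = 0.0579) and Pld3 (-0.37, 0.0561) were not.

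**Figure D4:**
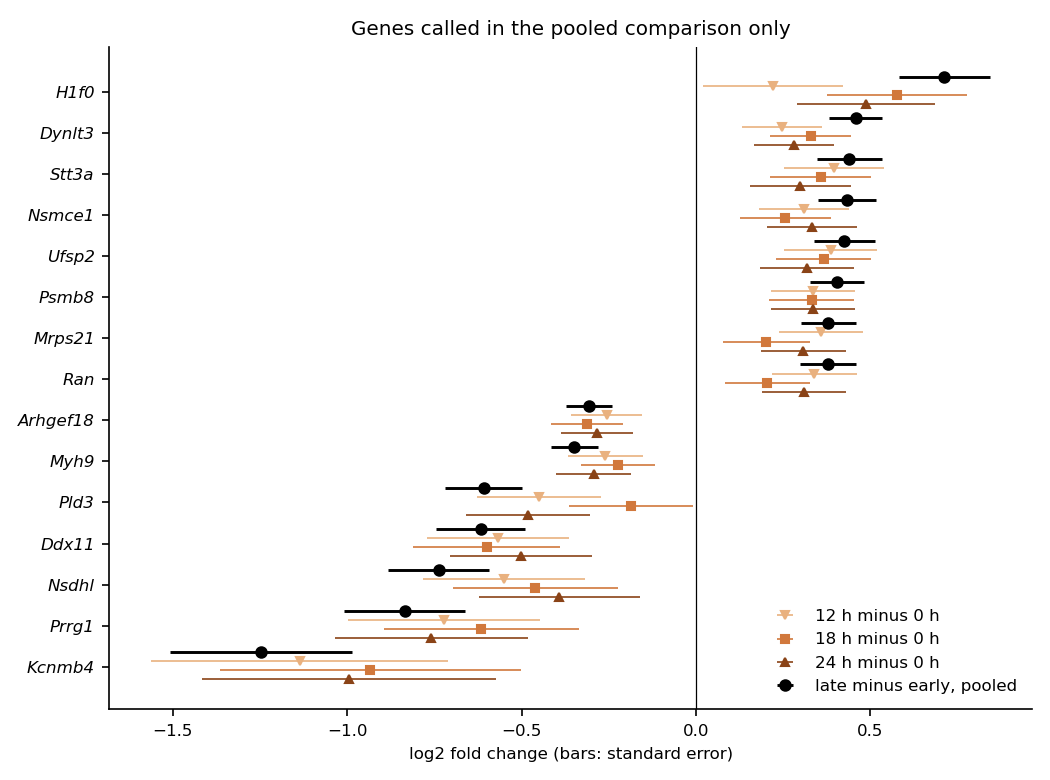
Log2 fold changes (x axis) with their standard errors for 8 higher and 7 lower genes called in the pooled comparison only, from those with the smallest p: pooled late minus early (black) and each late time minus 0 h (orange to brown). All 3 single-time changes lie on the same side of 0 as the pooled one, which the choice of genes by the pooled contrast favours. Their standard errors are longer, for Psmb8 0.12 against 0.08.

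Several enzymes of cholesterol synthesis were called lower late, and for 5 of the 6 named here the 6 h mean lay above that at 0 h. Of 27 tested genes of cholesterol synthesis and uptake, 7 were called lower and 5 higher (44.4%, against 30.4% of all genes). The list thus went both ways, and its 5 higher members are not named here. Of the 7 lower ones 6 were called in the pooled comparison only. The lower genes included these enzymes of the pathway: Idi1 (log2 -0.74 ± 0.13), Nsdhl (-0.74 ± 0.14), Mvd (-0.58 ± 0.12), Fdps (-0.48 ± 0.10), Dhcr7 (-0.42 ± 0.10) and Lss (-0.34 ± 0.11). Lss lost its call in 2 of the 15 fits without 1 library, with the highest adjusted p, 0.0703, without the 6 h library 1, and with library size scaling (0.191). Mvd, which makes isopentenyl diphosphate, had mean levels of 15.4, 24.5, 12.8, 13.1 and 13.3 CPM in time order from 0 to 24 h. The 6 h means of Nsdhl, Mvd, Fdps, Dhcr7 and Lss were above those at 0 h by 0.37 to 0.67 on the log2 scale, each with an adjusted p of 0.908. Against 0 h alone the list had 2 lower and 7 higher calls, and against 6 h alone 11 lower and 0 higher. Higher calls numbered 3 without the 0 h library 2, the 6 h library 3 or the whole 24 h time, and 1 without 18 h. Against 0 h, Idi1 kept its call (log2 -0.75, adjusted p = 0.00039), and Mvd (-0.25, adjusted p = 0.279) and Dhcr7 (-0.15, 0.453) did not. With the covariate Nsdhl was called (-1.26, adjusted p = 0.0205). These genes are named with knowledge of their values, and the median of the list was -0.14 with TMM and -0.02 with library size scaling.

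Most genes of the mitosis and DNA replication lists rose. Of 36 tested mitotic genes 31 were called higher late and the other 5 in neither direction (86.1% against 30.4% of all genes), with a median log2 fold change of 0.47 against -0.01 for all genes. Top2a, the topoisomerase that untangles chromosomes, had 341 to 435 CPM early and 483 to 662 late (0.66 ± 0.08, adjusted p = 3.1e-07), and the highest early value was that of the 6 h library 1. Ccnb2, the mitotic cyclin B2, had 26.4 to 35.0 CPM early and 48.1 to 57.9 late (0.78 ± 0.08, adjusted p = 4.24e-08). Birc5, which encodes survivin of the chromosomal passenger complex (0.68 ± 0.08), and Mki67, the marker of cycling cells (0.52 ± 0.07), rose too, and none of these 4 overlapped. DNA replication genes showed 26 higher calls of 40 (65%; median 0.35), among them E2f2, a cell cycle transcription factor (30.3 to 46.2 CPM early, 56.7 to 77.9 late; 0.95 ± 0.09), the ribonucleotide reductase subunits Rrm1 (0.59 ± 0.09) and Rrm2 (0.66 ± 0.09), and the origin licensing factor Cdc6 (0.67 ± 0.10). Clustered histone genes showed 32 higher calls of 59 (54.2%; median 0.57); they have near-identical copies, and Hist1h2ai had 99.1 to 149 CPM early and 160 to 254 late. Without the 6 h time the higher calls were 27 for mitosis, 20 for replication and 26 for histones, and over all fits without 1 library they were 27 to 32, 22 to 28 and 26 to 33. Without the 0 h time they were 20 for mitosis, 18 for replication and 21 for histones, and without the 24 h time 25, 18 and 20. With the covariate the medians were 0.28, 0.16 and 0.43, and no gene of these 3 lists passed.

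Regulators of the cycle were mixed. Rb1, the retinoblastoma protein that restrains S phase entry, had 222 to 314 CPM early and 130 to 203 late (-0.81 ± 0.08, adjusted p = 1.34e-08), without overlap. Cdk6, which phosphorylates it, had 1115 to 1205 CPM early and 1404 to 1549 late (0.34 ± 0.07, adjusted p = 0.000534). Ccnd3, the main D cyclin of T cell precursors, rose by 0.29 ± 0.07 with overlap and Ccnd1 was lower by 0.50 (SE 0.13). Homologous recombination and Fanconi genes had 12 higher and 2 lower calls of 35 (40%, median 0.15, against 30.4% of all genes called). Rad51ap1 (0.58 ± 0.09), Rad54l (0.42 ± 0.07) and the helicase Brip1 (0.42 ± 0.07) were all apart. Higher calls in this list were 7 without the 0 h time.

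Most tested glycolytic genes rose as well. Of 35 tested genes of glycolysis and the hypoxia response 22 were called higher and the other 13 in neither direction (62.9%, against 30.4% of all genes). The list had a median of 0.45, and 1 of the 22 was called in the pooled comparison only. Tpi1, the triose phosphate isomerase, had 24.3 to 40.4 CPM early and 49.2 to 112 late (log2 1.32 ± 0.10, adjusted p = 3.82e-10), and was also called with the covariate (0.86, adjusted p = 0.0152). It was the only gene of the list called in that fit, in which the other 21 lost their call and the median was 0.31. Aldoa (1.03 ± 0.10), Pkm (1.005 ± 0.10), Ldha (0.83 ± 0.09) and Pgk1 (0.79 ± 0.09), enzymes from aldolase to lactate dehydrogenase, did not overlap either; Pgk1 had 84.8 to 124 CPM early and 134 to 226 late. The rise was not level over the late times in part of this list. Tpi1 had means of 102 CPM at 12 h, 78.6 at 18 h and 55.4 at 24 h and differed among them (adjusted p = 0.00367), as did Aldoa (0.00638). Bnip3, a hypoxia-induced mitophagy receptor, had means of 9.21 and 9.97 CPM at 0 and 6 h, 37.7 at 12 h, 23.9 at 18 h and 9.80 at 24 h, so that its pooled change of 1.08 ± 0.15 came from 12 and 18 h; it differed among the late times (adjusted p = 1.27e-05), and at 24 h against 0 h the change was 0.06 (adjusted p = 0.891). Pdk1, the kinase that holds pyruvate back from the mitochondrion, was at 93.2, 89.7 and 55.8 CPM against 50.9 at 0 h (adjusted p among late times 0.00196).

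Among called genes of the respiratory chain, nuclear ones were mostly higher and mitochondrially encoded ones lower. Of 80 tested nuclear subunits 32 were called higher, 1 lower and 47 in neither direction (41.2% called, against 30.4% of all genes). The median change of the list was 0.17, and 17 of the 32 were called in the pooled comparison only. Ndufa9, a complex I subunit, had 29.0 to 44.7 CPM early and 52.0 to 60.2 late (0.64 ± 0.09, adjusted p = 5.35e-06), and Atp5g2, of ATP synthase, 79.9 to 113 and 123 to 137 (0.48 ± 0.08). Both were apart between the classes. Examples of the 17, named after their values were seen, were Ndufa13 (0.32 ± 0.08) and Cox5b of complex IV (0.28 ± 0.07). The nuclear list had 18 higher and 4 lower calls without the 6 h time, 21 higher without the 0 h time, the 24 h time or the 0 h library 1, and 35 higher and 6 lower without the 6 h library 1. With the covariate its median was 0.12 and no gene was called. Of the 13 mRNAs encoded in mitochondrial DNA 12 were called lower (92.3%), with a median of -0.43, and 5 were without the 0 h time and 6 without the 24 h time. With library size scaling 7 of the 13 were called lower (median -0.29), and the nuclear list had 49 higher and 0 lower calls. The complex I gene mt-Nd2 had 4839 to 8096 CPM early and 4375 to 5414 late (-0.52 ± 0.10, adjusted p = 0.000155), and mt-Nd5 886 to 1488 and 693 to 895 (-0.70 ± 0.09). The lowest early value of both was that of the 6 h library 1, which overlapped the late ones. The share of counts in mitochondrial ribosomal RNA moved with them, at 5.10% to 7.76% early and 3.40% to 5.46% late, and with the covariate the median of the 13 was 0.10, like the nuclear one above 0, and their calls were lost.

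In the main fit, genes for making, folding and degrading proteins were called higher more often than lower. Over all genes tested 15.1% were called higher and 15.3% lower, 30.4% either way. Translation factors had 17 higher and 1 lower call of 34 (52.9%; median 0.22), including the start codon factor Eif1 (192 to 268 CPM early, 285 to 336 late; 0.43 ± 0.07) and Eif3l (0.45 ± 0.08). Aminoacyl-tRNA synthetases had 10 higher calls of 20 (median 0.24), with Vars, for valine, at 0.39 ± 0.08. Of 26 chaperone genes 15 were higher and the other 11 in neither direction (57.7%; median 0.24). Hsp90aa1, the inducible cytosolic HSP90, had 326 to 472 CPM early and 504 to 660 late (0.71 ± 0.08, adjusted p = 3.48e-07). In the endoplasmic reticulum list 11 of 25 were higher (44%), with the transcription factor Xbp1 (0.72 ± 0.08), the chaperone Calr (0.75 ± 0.08) and the disulfide isomerase Pdia6 (0.63 ± 0.07) apart between classes. The proteasome list had 14 higher calls of 38 (36.8%). Cytosolic ribosomal proteins had 14 higher and 5 lower calls of 78 (24.4%), below the share of all genes, and 14 higher and 25 lower without the 6 h library 1. For nucleotide synthesis 10 of 25 were higher (40%), led by Impdh2 of guanine nucleotide synthesis (0.63 ± 0.08) and Paics of purine synthesis (0.72 ± 0.10). Higher calls of translation factors were 25 without the 6 h library 1, 10 without the 6 h library 2, 7 without the 0 h time and 10 without the 24 h time. Without 0 h and without 24 h they were 1 and 2 for the synthetases, 6 and 9 for the chaperones and 8 and 8 for the proteasome, which had 9 without the 6 h library 2. Ribosomal protein genes had 4 higher and 0 lower calls without the 0 h time, and 12 lower without the 12 h library 2. With the covariate none of these 7 lists kept a call, and the medians were 0.02 for translation factors, -0.03 for synthetases, -0.04 for chaperones, 0.26 for the endoplasmic reticulum, -0.06 for the proteasome, 0.15 for ribosomal proteins and -0.05 for nucleotide synthesis.

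**Figure D5:**
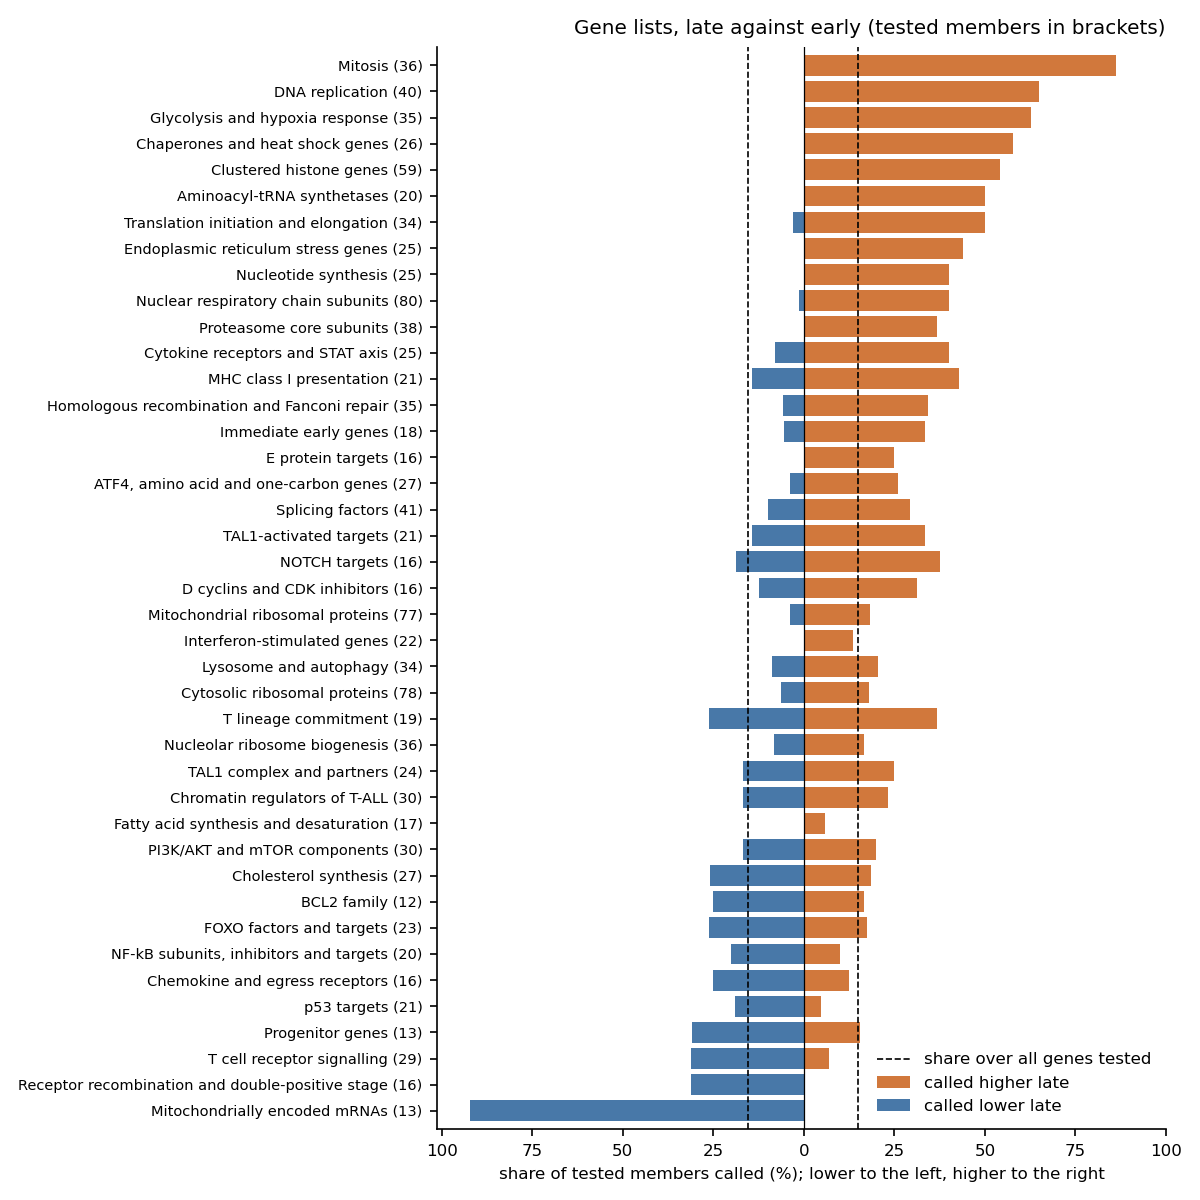
Bars give the share of tested members (x axis, %) called higher late (right, orange) or lower late (left, blue) for each gene list with at least 12 tested members, whose number stands in brackets. Dashed lines mark the shares over all genes tested, 15.1% higher and 15.3% lower; mitosis is at the top and the mitochondrially encoded mRNAs are at the bottom.

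Genes of the TAL1 complex did not move one way. Of 24 tested genes of the complex and its partners 6 were called higher and 4 lower (41.7%, median 0.04, against 30.4% of all genes called). These counts were 11 and 4 with library size scaling, 8 and 5 without the 6 h library 1, and 3 and 4 without the 6 h library 2. Without the 0 h time 3 were higher. Ldb1, the bridging factor of the complex, had 91.8 to 138 CPM early and 58.7 to 79.1 late (-0.58 ± 0.08, adjusted p = 4.26e-06), and its stabiliser Ssbp2 fell by 0.64 on the log2 scale (SE 0.09). Lmo2, the adaptor between TAL1 and LDB1, was at 7.37 to 13.8 CPM early and 3.48 to 8.87 late (-0.85 ± 0.17, adjusted p = 0.000432). Erg, an ETS factor of progenitors, rose from 7.95 to 15.3 CPM to 17.5 to 28.9 (0.93 ± 0.12, adjusted p = 1.34e-06), without overlap, and Lyl1, the closest relative of TAL1, rose by 0.49 ± 0.08. Gata3 was called in the pooled comparison only (0.27 ± 0.08), and lost its call without the 6 h library 2 (adjusted p = 0.0527). Lmo2 and Gata3 were named after their values were seen.

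Of 21 tested genes that TAL1 is known to activate in leukaemia 7 were called higher and 3 lower (47.6%, against 30.4% of all genes). The median of this list was 0.10. Mycn had 17.3 to 23.9 CPM early and 26.8 to 35.3 late (0.63 ± 0.10, adjusted p = 1.52e-05), Tox fell from at least 77.9 to at most 72.2 CPM (-0.66 ± 0.08) and the adhesion molecule Alcam fell by 0.67 (SE 0.11). Itga2b, the platelet integrin chain, rose by 0.91 ± 0.12 with overlap. E protein targets had 4 higher calls of 16 (25%; median 0.12): Dtx1 (1.05 ± 0.16), Notch1 (0.41 ± 0.07), Cdk6 and Socs3. The call of Socs3 (adjusted p = 0.0378) was lost in 7 of the 15 fits without 1 library, with the highest adjusted p, 0.123, without the 6 h library 2. Cpa3, the carboxypeptidase of mast cells, had 247 to 301 CPM early and 418 to 504 late (0.77 ± 0.07, adjusted p = 5.4e-09) and was called with the covariate (0.60, adjusted p = 0.0347). It made up most of the summed level of the megakaryocyte and mast cell markers, 268 to 323 CPM early and 463 to 549 late, of which 3 of 8 passed the filter. The part of other cells in these values was not tested.

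NOTCH target genes had 6 higher and 3 lower calls of 16 (56.2%, median 0.09, against 30.4% of all genes called). Without the 0 h time 1 was lower. Hes1, a repressor and direct NOTCH target, had 28.8 to 60.2 CPM early and 83.5 to 124 late (1.04 ± 0.11, adjusted p = 1.11e-07), and Nrarp, a feedback inhibitor of NOTCH, 6.07 to 14.2 and 15.04 to 28.8 (1.09 ± 0.14). Il2ra, the alpha chain of the interleukin 2 receptor, had 281 to 559 CPM early and 786 to 1136 late (1.04 ± 0.10, adjusted p = 3.92e-08). The lowest early value of Hes1 and of Il2ra was that of the 6 h library 2. Ccr9, the chemokine receptor of thymus and gut homing, went the other way, from 11.1 to 18.4 CPM to 4.21 to 9.04 (-1.26 ± 0.17, adjusted p = 3.28e-06). In the cytokine list 10 of 25 were higher and 2 lower (48%; median 0.17), 1 lower without the 0 h library 3 or the 6 h time: Socs2, a feedback inhibitor and STAT5 target, rose from at most 74.8 to at least 103 CPM (0.72 ± 0.07, adjusted p = 1.97e-08) and was called with the covariate (0.88, adjusted p = 0.00224), and Stat5b rose by 0.59 ± 0.08. Il21r fell by 1.01 (SE 0.13).

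T cell receptor signalling was a list with more falls than rises, 9 lower and 2 higher of 29 (37.9%, against 30.4% of all genes). Its median was -0.14, and library size scaling gave 6 lower and 4 higher calls. Cd247, the zeta chain of the receptor complex, had 111 to 143 CPM early and 82.1 to 104 late (-0.46 ± 0.07, adjusted p = 5.35e-06). Lat, the membrane adaptor, was also apart and lower (-0.39 ± 0.07), and the receptor chain gene Cd3g was higher (0.47 ± 0.07). Of genes for receptor recombination and the double-positive stage 5 of 16 were called lower (31.2%), but library size scaling gave 2 lower and 6 higher. Without the 6 h library 1 this list had 4 higher calls, without the 0 h library 2, the 6 h library 3 or the 0 h time 3 lower, and without the 6 h or the 24 h time 2 lower. Lef1, a factor of T lineage development, had 1.25 to 4.76 CPM early and 0.174 to 1.69 late (-2.18 ± 0.37, adjusted p = 5.77e-05), with a lowest count of 1. In the commitment list 7 were higher and 5 lower of 19 (63.2%), with Thy1 at 34.7 to 39.5 CPM early and 49.7 to 66.4 late (0.59 ± 0.08) and Zfpm1, the GATA cofactor FOG1, at 0.71 ± 0.10. Mef2c, a progenitor factor, had 35.1 to 42.0 CPM early and 12.3 to 18.9 late (-1.19 ± 0.09, adjusted p = 4.39e-10) and was called with the covariate (-1.21, adjusted p = 0.00224). Cd44, an adhesion receptor of early precursors, fell by 0.52 (SE 0.09) with overlap, and Itgae, the integrin chain CD103, by 1.02 (SE 0.10) without.

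Components of PI3K/AKT and mTOR signalling, the pathway named in the title of the series, had 6 higher and 5 lower calls of 30. This is 36.7%, near the 30.4% of all genes, with a median of -0.04. Library size scaling gave 8 higher and 2 lower calls. Of the 6 higher ones 1 is Pdk1, the pyruvate dehydrogenase kinase of the glycolysis list and not the AKT kinase PDPK1; without it 5 of 29 were higher and 5 lower (34.5%; median -0.04), and 7 and 2 with library size scaling. Lower calls were 3 without the 0 h library 1, the 6 h library 2, the 0 h time or the 24 h time. Deptor, an inhibitor of mTOR, had 70.4 to 164 CPM early and 173 to 246 late (0.70 ± 0.11, adjusted p = 3.59e-05), and Eif4ebp1, the translation repressor that mTOR phosphorylates, 26.9 to 43.0 and 46.6 to 62.4 (0.66 ± 0.09). FOXO factors and targets had 4 higher and 6 lower calls of 23 (43.5%), and 7 and 1 with library size scaling. Higher calls in this list numbered 2 without any 1 of 8 libraries, which were the 0 h libraries 2 and 3, the 6 h library 2, the 12 h library 3, the 18 h libraries 1 and 2 and the 24 h libraries 1 and 2. Without the 0 h time 1 was higher, and without the 6 h time 1 was lower. S1pr1, the egress receptor, was lower (-0.72 ± 0.15), with overlap.

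Immediate early genes had 6 higher and 1 lower call of 18 (38.9%, against 30.4% of all genes), and the pooled value hid their course. Without the 18 h time 1 was higher and 4 lower, and without the 12 h library 1 lower calls numbered 2. Egr1 had 3.35 to 7.65 CPM in the early libraries. Its 12 h libraries lay between 1.22 and 2.32 CPM, those of 18 h between 58.2 and 96.2, and those of 24 h between 14.6 and 22.6. Its pooled log2 fold change of 1.33 ± 0.22 thus averaged a lower level at 12 h with higher ones after it (adjusted p among late times 1.54e-13). Junb, an AP-1 subunit, differed among the late times as well (0.75 ± 0.13 pooled; adjusted p among late times 0.000385), whereas Klf4 was higher in all 9 late libraries (0.837 to 1.98 CPM early, 2.43 to 5.23 late; 1.31 ± 0.26). The MHC class I list had 9 higher and 3 lower calls of 21 (57.1%), 6 of them in the pooled comparison only, and 1 lower without the 24 h time. Its immunoproteasome subunits Psmb10 (0.61 ± 0.08) and Psmb9 (0.38 ± 0.07) rose like Psmb8, while the heavy chain gene H2-K1, which has close copies, was lower (441 to 495 CPM early, 379 to 438 late; -0.22 ± 0.07) and lost its call with library size scaling (adjusted p = 0.331). Interferon-stimulated genes had 3 higher calls of 22 (13.6%), with Isg20, an exonuclease, at 9.44 to 15.4 CPM early and 23.5 to 37.8 late (1.24 ± 0.12, adjusted p = 1.78e-08); 5 were higher without the 6 h library 1, and 1 without the 0 h or the 24 h time.

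Genes of long non-coding and unprocessed models were called lower far more often than higher: of 1075 tested lincRNA, antisense, TEC and sense intronic models, 365 were called lower (34%) and 37 higher (3.44%), with a median log2 fold change of -0.39. Protein-coding genes had 1748 higher (16.5%) and 1455 lower (13.7%) calls of 10592. The share of reads in no annotated feature, given above, fell with these models, and the strand setting of the counting is not given, so reads of antisense models may come from the genes they overlap. Markers of other cell types were summed in the same way. Erythroid markers summed to 305 to 485.5 CPM early and 362.5 to 503 late. Of 4 tested, 2 were called higher and 1 lower, all in the pooled comparison only, and 0 were called without the 6 h time. Of 3 tested dendritic markers 1 was called lower, as was the 1 endothelial marker tested. Myeloid markers summed to 61.7 to 84.9 CPM early and 49.99 to 67.8 late, with S100a8 (-0.93 ± 0.14) and S100a9 (-0.94 ± 0.15) lower. NK and innate markers summed to 488 to 745 CPM early and 816 to 1211 late, and most of this was Gzma, a granzyme (321 to 545 CPM early, 622 to 1010 late; 0.80 ± 0.09), while Klrb1c, the receptor NK1.1, had 2.92 to 5.02 CPM early and 0.153 to 1.48 late, with a lowest count of 1 (-2.36 ± 0.31, adjusted p = 2.52e-06). Their part in the other results was not tested.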

How the data were processed

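Whole-number counts per gene and library were deposited by the authors as 1 unnormalized table of the 15 ProT libraries. The submitters' processing notes name HISAT2, SAMtools, HTSeq and FastQC, with builds mm10 and GRCm38. Their versions, the gene annotation and whether counting used strand are not given in the sources used here. In such counting, reads of overlapping genes and near-identical copies may be split or lost. The table held 46078 genes, of which 45229 were found by identifier in GENCODE M21, the source of gene positions, and 27 symbols that had become dates were looked up again by identifier. Its 5 summary lines entered neither library sizes nor tests. Total counts per library, 2660641 to 6599146, set the precision of low genes.

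Genes passing filterByExpr (13610) were fitted with edgeR 4.0.16 in R 4.3.3 (TMM, quasi-likelihood F test, 1 mean per time, all 15 libraries sharing 1 spread). The contrast was the mean of 12, 18 and 24 h minus the mean of 0 and 6 h, with Benjamini-Hochberg adjustment over all genes and a threshold of 0.05. "Called" means past that threshold, and "in the pooled comparison only" means called there and at no single late time against 0 h. A standard error is the size of the log2 fold change over the root of its F value. The common biological coefficient of variation was 11.6%. CPM are counts scaled by the TMM library size. The scripts were tested on simulated data. Gene lists got counts and medians, with no test. Genes named were Tal1, the 8 largest changes each way at a mean of at least 5 CPM, the 8 pooled-only genes each way with the smallest p, up to 4 called members of each list with the smallest p, leaving out gene models and pseudogenes, and genes chosen after their values were seen (Mvd, Lss, Dhcr7, Pgk1, Bnip3, Lmo2, Gata3, H2-K1, Cox5b, Ndufa13 and Atp5b). The comparison, lists and genes were chosen with earlier results of these data known. Alternatives were other scalings, filters, DESeq2 1.42.0, a 2-group fit, a replicate block, a minimum fold of 1.2, fits without each library or time, and 4 added after seeing the data. Promoters came from RefSeq. Some genes that these rules name are not reported here.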

Additional observations from a re-analysis of the deposited data

Results flagged for a closer look

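Single libraries stood apart from the others of their class in 14 of the genes named above. Examined were 238 groups of libraries, an early and a late one for each gene shown. At about 1 in 20, chance would give 11.9 if the groups were independent. All genes share the same libraries, and the 6 h libraries 1 and 2 recur among the 14. The total of 14 therefore cannot tell chance from a departure of whole libraries. In the early class the 6 h library 1 was the highest for Ccdc109b (8.44 CPM, next 4.87), Junb (20.9, next 13.9), Vars (92.6, next 78.6), Top2a (435, next 358), Ccnd3 (156, next 126) and Pkm (278, next 199), each on the side of the late libraries. The 6 h library 2 was the highest for Tal1 (3608 CPM, next 3098) and the lowest for Hes1 (28.8, next 51.6), Il2ra (281, next 492.6) and Deptor (70.4, next 134), each on the side away from the late ones. In the late class the 18 h library 2 was the highest for Morn3 (7.40 CPM) and H2-K1 (438) and the lowest for Mef2c (12.3), and the 12 h library 3 was the highest for Stat5b (111).

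Changes that differed among 12, 18 and 24 h, by the F test over these times in edgeR with adjustment over all genes, were found for Egr1 (adjusted p = 1.54e-13), Bnip3 (1.27e-05), Junb (0.000385), Pdk1 (0.00196), Tpi1 (0.00367) and Aldoa (0.00638). A pooled value does not describe the course of these 6 genes.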

How the results depend on the processing

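The count of called genes, 4138, was 3908 with DESeq2, 3965 in a 2-group fit and 4146 with RLE scaling. It was 2180 without the 0 h time, 1246 against a minimum fold of 1.2 and 47 with the share of reads in no feature as a covariate. Higher calls were 3337 with library size only, 1003 without 0 h, 539 with the minimum fold and 18 with the covariate, and lower calls 1156, 1177, 707 and 29. Genes called in the pooled comparison only were 900 with the stricter filter, 255 without the 6 h time, 401 with the minimum fold and 10 with the covariate; without 0 h they have no reference and no value. Fits without 1 library gave 3181 to 5105 calls, 1567 to 2525 higher and 1614 to 2580 lower, and 839 (without the 6 h library 2) to 1792 (without the 0 h library 2) pooled-only calls. With the covariate 3309 of the 4138 called genes (80%) had the same sign. Among the 207 genes named by rule or by choice, 11 changed sign: Cd1d1 (0.0185), Map3k14 (0.0799), Ercc5 (0.206), Bcl2l1 (-0.0832), Elovl5 (-0.0582), mt-Atp8 (0.0267), mt-Nd2 (0.0156), mt-Nd4l (0.0867), Clk1 (0.0648), Dnmt1 (-0.0722) and Atp5b (-0.152). The cause was not tested. Of the 207 genes named by rule or by choice, 17 kept their call with the covariate, 190 with library size only, 175 without 6 h and 177 without 0 h.

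Same-numbered libraries did not deviate together (30 pairs, correlations of -0.143 to 0.213, median -0.008, 1 over 0.1), so the numbers were not taken as pairs. With the replicate block 4155 genes were called, 1405 of them in the pooled comparison only, and all 207 genes kept their call. Library totals limit genes near 3 counts, such as Rapsn, Lef1 and Klrb1c.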
